A study of Mus musculus with 2 samples.

Results

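The replication-dependent histone genes were the 68 rows of the deposited count tables whose symbol starts with *Hist1h*, *Hist2h*, *Hist3h* or *Hist4h*, out of 23282 rows. The rule reads the symbol alone and no measured value. The 68 rows comprised 6 genes of the linker histone H1, 18 of H2A, 19 of H2B, 12 of H3 and 13 of H4. By cluster, 54 belonged to *Hist1*, 10 to *Hist2*, 3 to *Hist3* and 1 to *Hist4*.

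The RNA-seq compared 1 control library with 1 RV-Cre library of Th17 cells. Both came from naïve CD4 T cells of FAKfl/fl mouse spleens, in which both *Fak* alleles carry loxP sites. The cells received a retrovirus, either empty (Control) or expressing Cre recombinase (RV-Cre), and were activated through CD3ε by coated antibody at 10 μg/ml and through CD28 by antibody in solution at 5 μg/ml. They were kept for 3 days with IL-6 (50 ng/ml), TGFβ1 (1 ng/ml), TNF-alpha (1 ng/ml), IL-1beta (2 ng/ml) and antibodies to IFNgamma and IL-4 (5 μg/ml each). According to the paper's methods, transduced cells were sorted by GFP. The genotype label of the control reads WT, whereas its title names FAKfl/fl cells with the control virus, and the title was followed. The paper's methods give female donors aged 6 to 8 weeks for its naïve CD4 T cells. The number of animals behind each library is not given in the sources used here. Cre was present in the RV-Cre library alone, so that effects of Cre and of *Fak* loss cannot be told apart. There are no replicates, so no p-value is printed. Every interval beside a ratio is a 95% one, computed exactly (Clopper-Pearson) from how a gene's reads divide between the libraries. It holds the counting error of these 2 libraries, with each read taken as independent, and nothing of the spread between cultures.

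Replication-dependent histone genes supply the core histones H2A, H2B, H3 and H4, around which DNA is wrapped, and the linker histone H1. Most of their mRNA is made in S phase, when new chromatin is assembled. It normally ends in a stem-loop bound by SLBP instead of a poly(A) tail, while some members can also be made as polyadenylated mRNA, mostly in cells that have stopped dividing. The libraries were of the QuantSeq type, which starts from an oligo(dT) primer, so that reads on these genes come from polyadenylated or A-rich RNA and not from the whole histone mRNA pool.

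The stem-loop is the feature that most members share. In GENCODE M21, an annotation of the GRCm38 assembly (the same assembly as the mm10 build named in the submitters' processing notes), all 68 members were found by symbol. A 16-base stem-loop pattern was searched on the transcript strand. It was present in 44 members, and in 44 of the 52 whose annotated transcript runs at least 16 bases past the stop codon. It was present in 72 of 21901 protein-coding genes (0.329%), a count that includes the histone members themselves. The spelling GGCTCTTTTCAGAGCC was found in 26 members, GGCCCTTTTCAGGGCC in 7, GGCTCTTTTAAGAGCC in 6, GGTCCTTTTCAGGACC in 2, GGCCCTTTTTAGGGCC in 2 and GGCTCTTTTTAGAGCC in 1. The pattern allowed any base at the positions where these 6 spellings differ and was fixed at all others. The stretches below, read from GENCODE transcripts, show the 2 members with most reads, then the member with most reads in H3, H4 and H1. The last is *Hist2h2aa1*, whose ratio of RV-Cre over control reads, 1.40, was above 1 but under 2-fold. The stem-loop is in capitals and the 12 bases before it are in lower case.
Hist1h2ap, chr13:21833029-21833056, minus strand: aaaaaaaaaaaaGGCTCTTTTCAGAGCC
Hist1h2ao, chr13:21810886-21810913, plus strand: aaaaaaaaaaaaGGCTCTTTTCAGAGCC
Hist1h3c, chr13:23745047-23745074, minus strand: tatttaaaaaaaGGCTCTTTTAAGAGCC
Hist1h4b, chr13:23757354-23757381, plus strand: actgttacaaaaGGTCCTTTTCAGGACC
Hist1h1e, chr13:23621782-23621809, minus strand: caacaacccaaaGGCTCTTTTCAGAGCC
Hist2h2aa1, chr3:96246020-96246047, plus strand: agctcctaaaaaGGCTCTTTTCAGAGCC
In *Hist1h2ap* and *Hist1h2ao* a run of 12 A stands directly before the stem-loop. Among the other members with a stem-loop, this run was at most 7 A, the length in *Hist1h3c*, and 37 of the 44 had 3 to 5.

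The targeted gene and the labelled cell type were checked first. *Ptk2*, the symbol of *Fak*, had 110 and 31 reads (control first, here and below), a ratio of 0.318 (95% interval 0.206 to 0.478). Reads of this kind come from the 3′ end of a transcript, and the position of the loxP sites was not looked up, so that the value is a level and not a check of the deletion. The libraries held 13799264 and 12305010 reads. The 6 T cell markers in the tables, among them *Cd3e* and *Cd4*, passed the expression minimum described below, and the summed reads of 5 Th17 markers were 2101 and 653. Markers of other cells were not absent, and those of CD8 T cells were not low (*Cd8a* 322 and 580 reads, *Cd8b1* 122 and 274). Summed reads were 42 and 108 for 4 B cell genes, 108 and 186 for 5 myeloid genes, 444 and 854 for the 2 CD8 genes and 12 and 8 for 2 natural killer cell genes. Genes within a sum differed in direction. Among the myeloid genes *Csf1r* had 16 and 110 reads and *Adgre1* 0 and 8, against *Lyz2* 22 and 7, *Itgam* 7 and 3 and *Cd68* 63 and 58. Of the B cell genes *Cd79b* had 18 and 11 reads, and the others had more in RV-Cre. The part of such cells in the histone values was not tested. In bulk RNA, fewer cells of a kind and less RNA per cell cannot be told apart.

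Reads on the histone genes fell in the RV-Cre library. Summed over all 68 members, there were 34019 control reads and 11727 RV-Cre reads, which is 0.247% (95% interval 0.244 to 0.249) and 0.0953% (0.0936 to 0.0970) of all counted reads. After scaling for library size the ratio of the sums was 0.389 (95% interval 0.381 to 0.397), a 2.57-fold lower level. Of the 68 members, 2 had no read in either library (the pseudogene *Hist3h2bb-ps* and the testis gene *Hist1h1t*) and 7 stayed under the expression minimum, a value of at least 4 on the log2(normalized reads + 1) scale in at least 1 library. Of the 59 members past it, 49 were at least 2-fold lower (83.1%), against 12.3% of all 12112 genes past the minimum. Only 2 of the 59, *Hist1h2bc* and *Hist2h2be*, were at least 2-fold higher (3.39%), against 14.2% of all genes. Their median log2 ratio was -1.76, against -0.01 over all genes past the minimum. The log2 ratio was below 0 for 54 members and above 0 for 5, against 50.4% and 49.6% of all genes. The counting interval lay wholly below a ratio of 1 for 50 members, against 38.1% of all genes, and wholly above 1 for 4, against 36.7%. It lay wholly below 0.5 for 38 members, against 6.98%.

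The minimum bears on these counts. Of the 49 members called lower, 22 passed it through the control library alone. Of the 2 called higher, *Hist2h2be* passed it through the RV-Cre library alone. Among the 34 members that reached a log2 value of 4 in both libraries, 27 were lower (79.4%) and 1 higher (2.94%), against 10.4% and 7.19% of the 10537 genes that meet the same condition. Among the 32 members that reached 6 in at least 1 library, 28 were lower and 2 higher, against 11% and 7.58% of 9688 genes. By mean log2 value, from 5 to 8, 19 of 22 histone genes were lower and 2 higher, against 15.6% and 12.8% of all genes in that range, so that the higher share is near the background. At 8 or more, 8 of 10 histone genes were lower and 0 higher, against 7.60% and 3.74%.

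**Figure D1:**
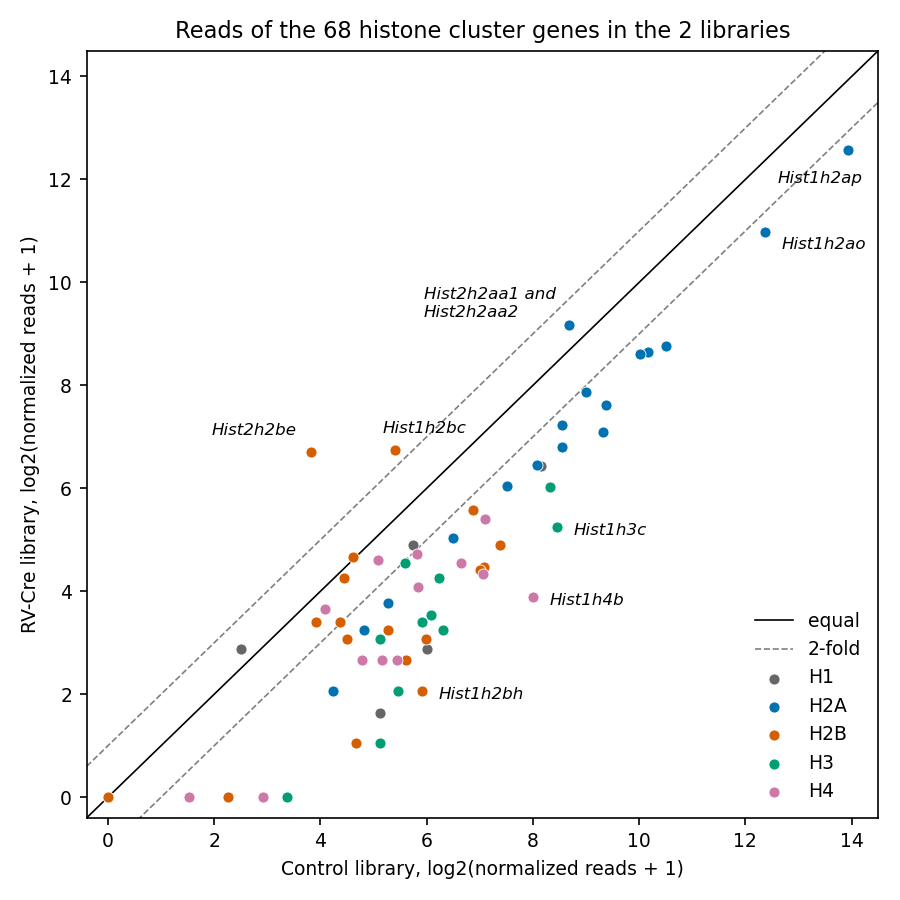
Level of each of the 68 histone cluster genes in the control library (x axis) and the RV-Cre library (y axis), both as log2(normalized reads + 1), coloured by histone class. The solid line marks equal levels and the dashed lines 2-fold differences on the normalized scale. Most points lie below the lower dashed line, and *Hist1h2bc* and *Hist2h2be* lie above the upper one.

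All 5 classes had fewer reads in the RV-Cre library, with unequal ratios. The summed reads of the 12 H3 genes, whose product forms the centre of the nucleosome together with H4, went from 1222 to 178 (ratio 0.164, 95% interval 0.140 to 0.193). Those of the 13 H4 genes went from 950 to 178 (ratio 0.211, 0.179 to 0.248). The 6 H1 genes went from 464 to 121 (ratio 0.294, 0.239 to 0.360). The 18 H2A genes went from 30384 to 10853 (ratio 0.403, 0.394 to 0.412) and the 19 H2B genes from 999 to 397 (ratio 0.448, 0.398 to 0.504). The intervals of H3 and H4 lie below those of H2A and H2B. By cluster, *Hist1* fell from 32629 to 10396 reads (ratio 0.360, 0.352 to 0.368), whereas *Hist2* had 1093 and 1249 reads (ratio 1.29, 1.19 to 1.40). That sum is carried by *Hist2h2aa1* and *Hist2h2aa2*, whose counts are identical. The 8 other *Hist2* genes had 219 and 165 reads (ratio 0.850, 0.690 to 1.04). Of the 9 *Hist2* genes past the minimum, 5 were at least 2-fold lower (55.6%) and 1 higher (11.1%), against 12.3% and 14.2% of all genes.

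**Figure D2:**
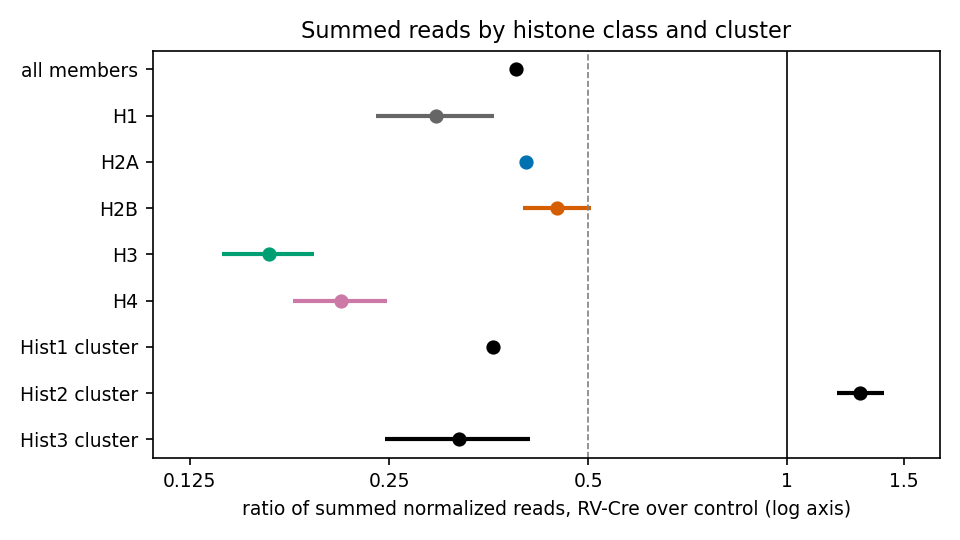
Ratio of summed normalized reads, RV-Cre over control, on a log axis, for all members, for each histone class and for 3 clusters. Points are ratios, lines are 95% counting intervals, and the dashed line marks 0.5. H3 (0.164) and H4 (0.211) have the lowest ratios, and the *Hist2* cluster (1.29), carried by 2 genes with identical counts, lies above 1.

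H2A genes held most of the reads. They took 89.3% of the control histone reads and 92.5% of those in the RV-Cre library. *Hist1h2ap* alone had 16639 and 5751 reads (ratio 0.390, 95% interval 0.379 to 0.402). *Hist1h2ao* had 5627 and 1890 reads (ratio 0.379, 0.360 to 0.399). These are the members with 12 A before the stem-loop, and together they held 65.5% of control and 65.2% of RV-Cre histone reads. Their share of the histone reads thus stayed nearly the same while the total fell. Only 4 members have a run of 10 or more A anywhere in an annotated transcript (15.8% of protein-coding genes do), the others being *Hist1h2ac* and *Hist1h2be*. The summed reads of these 4 had a ratio of 0.389 (0.379 to 0.399), and those of the 64 others 0.389 (0.375 to 0.404). *Hist1h2ap* and *Hist1h2ao* share most of their 50-base words (93.5% of those of *Hist1h2ao* and 93.1% of those of *Hist1h2ap*), so that reads may be split between them in a way the tables do not show.

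Of the other H2A genes, *Hist1h2ai* had 1551 and 409 reads, *Hist1h2ad* 1215 and 378 reads, and *Hist1h2ab* 1093 and 367 reads. *Hist1h2ag* fell from 709 to 185 reads (ratio 0.294, 95% interval 0.249 to 0.347). *Hist1h2ae*, from 680 to 128 reads, had the lowest ratio among the H2A genes with over 100 reads in the control library (0.212, 0.175 to 0.257). All 16 H2A genes of the *Hist1*, *Hist2* and *Hist3* clusters other than *Hist2h2aa1* and *Hist2h2aa2* were at least 2-fold lower, against 12.3% of all genes. Their log2 ratios ran from -2.23 to -1.13. *Hist3h2a*, the *Hist3* member with most reads, went from 286 to 82 (ratio 0.324, 0.2499 to 0.415). The H2A genes not named so far with over 100 control reads were *Hist1h2ah* (394 and 141 reads), *Hist1h2ak* (394 and 104) and *Hist1h2af* (193 and 61), and *Hist1h2aa* had 29 and 8.

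*Hist2h2aa1* and *Hist2h2aa2* went the other way. Either had 437 control and 542 RV-Cre reads, a ratio of 1.40 (95% interval 1.23 to 1.59) that excludes 1 and is under the 2-fold threshold. Their counts are identical, all their 50-base words occur in another annotated transcript, and each overlaps an antisense gene and a miRNA gene in GENCODE. They cannot be told apart here and may hold the same reads, which the *Hist2* sum then counts more than once. The other H2A genes of that cluster fell, *Hist2h2ac* from 40 to 12 reads and *Hist2h2ab* from 19 to 3. All 18 H2A genes overlap another annotated gene, in most cases a miRNA gene on the opposite strand, and whether strand was used in counting is not given in the sources used here.

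H2B was the class with 2-fold calls in both directions. Of its 15 members past the minimum 10 were called lower at 2-fold (66.7%, against 12.3% of all genes). The 2 called higher (13.3%) were near the 14.2% of all genes. *Hist1h2bj* fell from 177 to 27 reads (ratio 0.172, 95% interval 0.110 to 0.259), *Hist1h2bk* from 142 to 20 and *Hist1h2bq* from 136 to 19. *Hist1h2bh* went from 63 to 3 reads, a ratio of 0.0537 with an interval from 0.0108 to 0.164. *Hist1h2bb* went from 26 reads to 1 (ratio 0.0434, 0.00106 to 0.264). *Hist1h2be*, which overlaps *Hist1h1e* on the same strand, went from 123 to 44 (ratio 0.404, 0.279 to 0.574). The other H2B genes called lower were *Hist1h2bm* (66 and 7 reads), *Hist1h2bl* (51 and 5), *Hist1h2br* (40 and 8) and *Hist1h2bg* (23 and 7).

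*Hist2h2be* (chr3:96221119-96223738, plus strand) had 14 control and 98 RV-Cre reads. Its ratio was 7.90 (95% interval 4.49 to 14.98), the highest of the 59 members. With a log2 value of 3.83 in the control library, it passed the minimum through the RV-Cre library alone. *Hist1h2bc* (chr13:23684199-23692908, plus strand) had 44 and 100 reads, a ratio of 2.56 (1.78 to 3.74). Together they moved from a small to a large part of the H2B reads. *Hist2h2be* held 1.40% of the control H2B reads (95% binomial interval 0.768 to 2.34) and 24.7% of the RV-Cre ones (20.5 to 29.2), and *Hist1h2bc* 4.404% (3.22 to 5.87) and 25.2% (20.99 to 29.8). *Hist2h2be* shares no 50-base word with any other annotated gene. In *Hist1h2bc* 30.6% of the words are shared, at most 23.1% with a single gene. *Hist1h2bp* (25 and 23 reads, ratio 1.04, 0.563 to 1.91) and *Hist2h2bb* (22 and 17 reads, ratio 0.872, 0.435 to 1.72) had intervals that include 1, as did *Hist1h2ba* (21 and 9 reads). Under the minimum, *Hist1h2bf* had 7 reads and 0, *Hist3h2ba* 4 and 0, and *Hist1h2bn* 15 and 9.

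**Figure D3:**
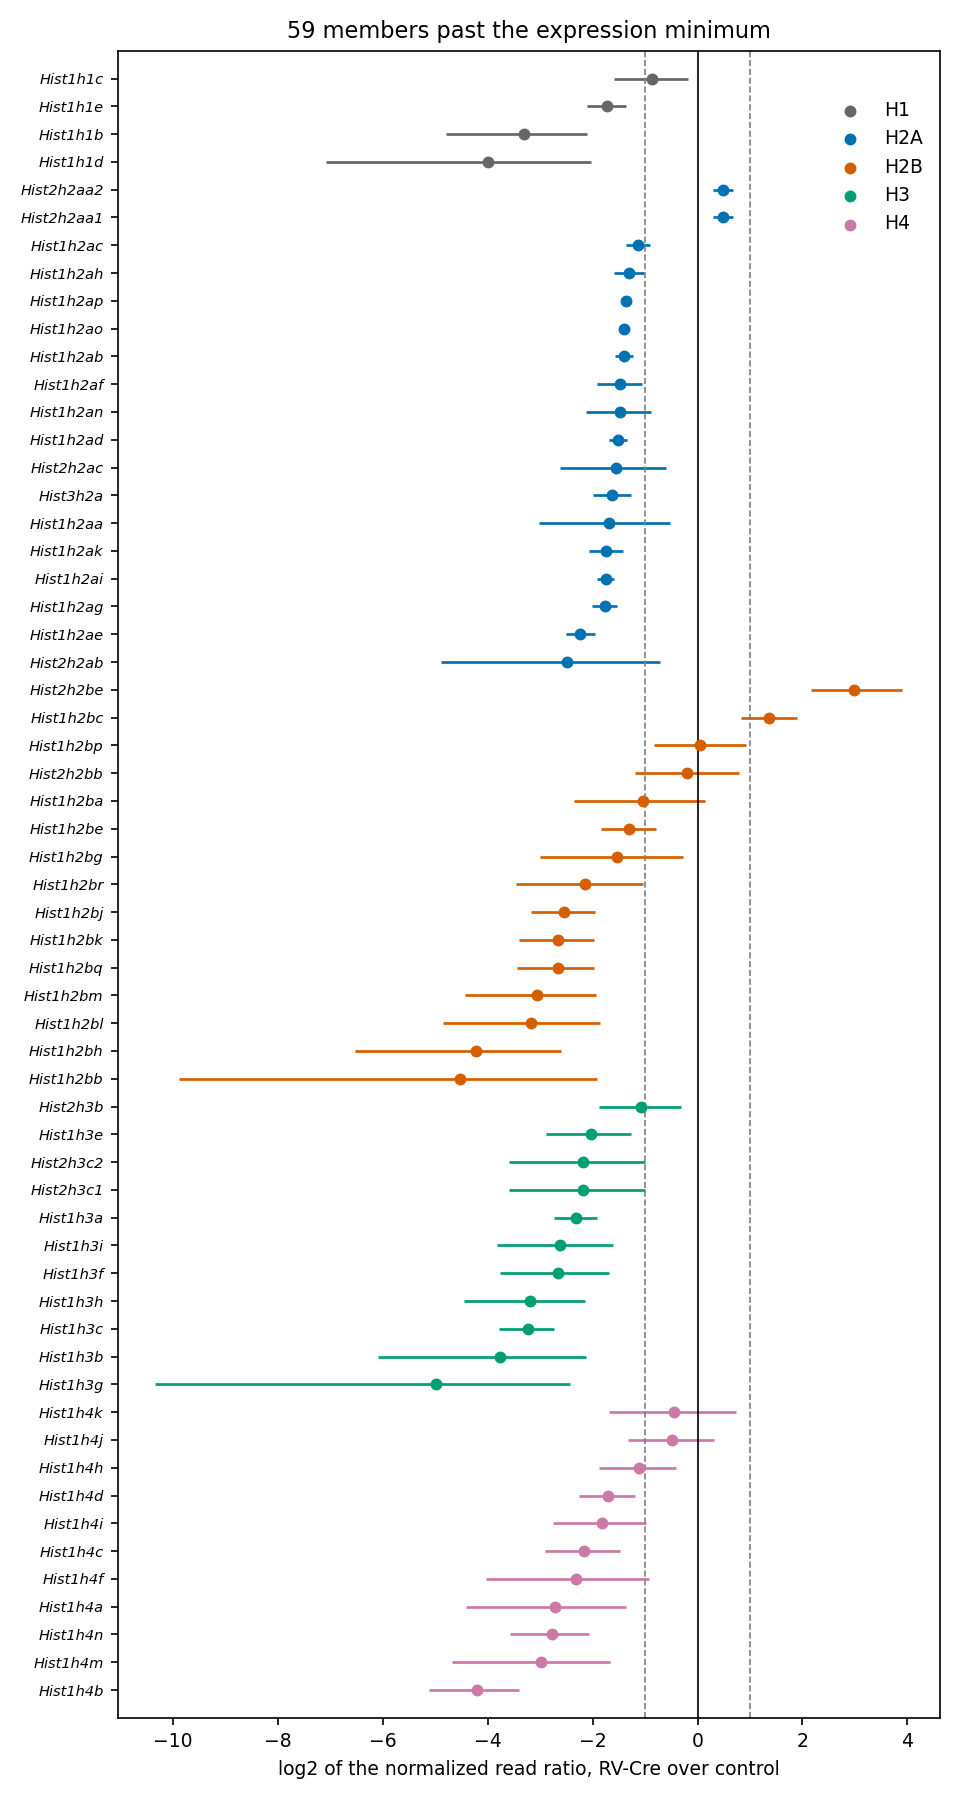
Log2 of the normalized read ratio, RV-Cre over control, for the 59 members past the expression minimum, grouped by class. Points are ratios without an added count, lines are 95% counting intervals, and dashed lines mark 2-fold. The 2 H2B points to the right of the upper dashed line are *Hist2h2be* and *Hist1h2bc*, and every H3 point lies left of the lower one.

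All 11 H3 genes past the minimum were at least 2-fold lower, against 12.3% of all genes. *Hist1h3c* fell from 373 to 35 reads (ratio 0.106, 95% interval 0.0726 to 0.150) and *Hist1h3a* from 339 to 60 (ratio 0.200, 0.149 to 0.264). *Hist1h3g* had 36 reads and 1 read, a ratio of 0.0314 whose interval runs from 0.000772 to 0.186. *Hist2h3b*, with 50 and 21 reads, had the highest ratio of the class (0.474, 0.270 to 0.804). Between these lay *Hist1h3h* (83 and 8 reads), *Hist1h3e* (79 and 17), *Hist1h3f* (71 and 10), *Hist1h3i* (63 and 9) and *Hist1h3b* (46 and 3). *Hist2h3c1* and *Hist2h3c2* had identical counts, 36 and 7, and may again hold the same reads. *Hist1h3d*, under the minimum, had 10 reads and 0, which is 2.95-fold lower when the 0 is set at its limit of 3 reads. The 95% interval of its ratio, which also holds the counting error of the control, reaches 0.503.

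Of 11 H4 genes past the minimum 9 were at least 2-fold lower (81.8%, against 12.3% of all genes). *Hist1h4b* fell from 270 to 13 reads, a ratio of 0.0543 (95% interval 0.0286 to 0.0945). With the added count its log2 value was -4.11, the lowest of the members past the minimum. It overlaps *4930558J22Rik*, an antisense gene, over its whole length. *Hist1h4d* fell from 144 to 39 reads, *Hist1h4n* from 140 to 18 and *Hist1h4c* from 106 to 21. *Hist1h4i* (60 and 15 reads), *Hist1h4h* (59 and 24), *Hist1h4m* (45 and 5), *Hist1h4a* (37 and 5) and *Hist1h4f* (28 and 5) were also lower. *Hist1h4j* (35 and 22 reads, ratio 0.709, 0.396 to 1.24) and *Hist1h4k* (17 and 11 reads, ratio 0.730, 0.309 to 1.65) had intervals that include 1. The only *Hist4* gene, *Hist4h4*, had 7 reads and 0, which is 2.07-fold lower against the limit of 3 reads. The 95% interval of its ratio reaches 0.783. *Hist2h4* had 2 reads and 0.

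Among the linker histones *Hist1h1e* had most reads, 300 and 80 (ratio 0.301, 95% interval 0.232 to 0.386). *Hist1h1b* went from 67 to 6 (ratio 0.101, 0.0358 to 0.232) and *Hist1h1d* from 36 to 2 (ratio 0.0627, 0.00731 to 0.244). *Hist1h1c*, with 56 and 27 reads (ratio 0.544, 0.330 to 0.876), was not at least 2-fold lower. *Hist1h1a* had 5 and 6 reads.

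The annotated 3′ ends were compared with these directions. Of 22 members whose stem-loop lies within 100 bases of the annotated transcript end, 21 passed the minimum. Of these, 18 were at least 2-fold lower (85.7%) and 0 higher, against 12.3% and 14.2% of all genes past the minimum. Of 18 members with an annotated transcript that continues over 300 bases past the stem-loop, 15 passed the minimum. Among those, 13 were at least 2-fold lower (86.7%) and 0 higher, with a median log2 ratio of -1.76. The pattern was not found in 8 members whose transcript runs at least 16 bases past the stop codon. Of the 7 of these past the minimum, 5 were at least 2-fold lower (71.4%), and the 2 others, both higher (28.6%), were *Hist1h2bc* and *Hist2h2be*. The annotated transcript of *Hist1h2bc* is 1156 bases long and that of *Hist2h2be* 2620, and of these 2 only *Hist2h2be* has a poly(A) signal (AATAAA or ATTAAA) within the last 40 bases. This describes the annotation, and the reads behind the counts were not examined.

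Many H2A and H2B genes lie head to head and share the stretch between their starts. In GENCODE M21, 13 such pairs were found, with starts 172 to 305 bases apart. Both members passed the minimum in 10 of the pairs. Both were at least 2-fold lower in 6 of these and the log2 ratios had opposite signs in 3. For pairs, no share over all genes was computed. *Hist1h2ac* fell from 546 to 220 reads (ratio 0.455, 95% interval 0.387 to 0.533), while its partner *Hist1h2bc* rose. *Hist2h2ac* fell from 40 to 12 reads (ratio 0.339, 0.162 to 0.658), while its partner *Hist2h2be* rose. In the remaining pair, *Hist1h2an* (95 and 30 reads) was lower and *Hist1h2bp* was at a ratio near 1.

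**Figure D4:**
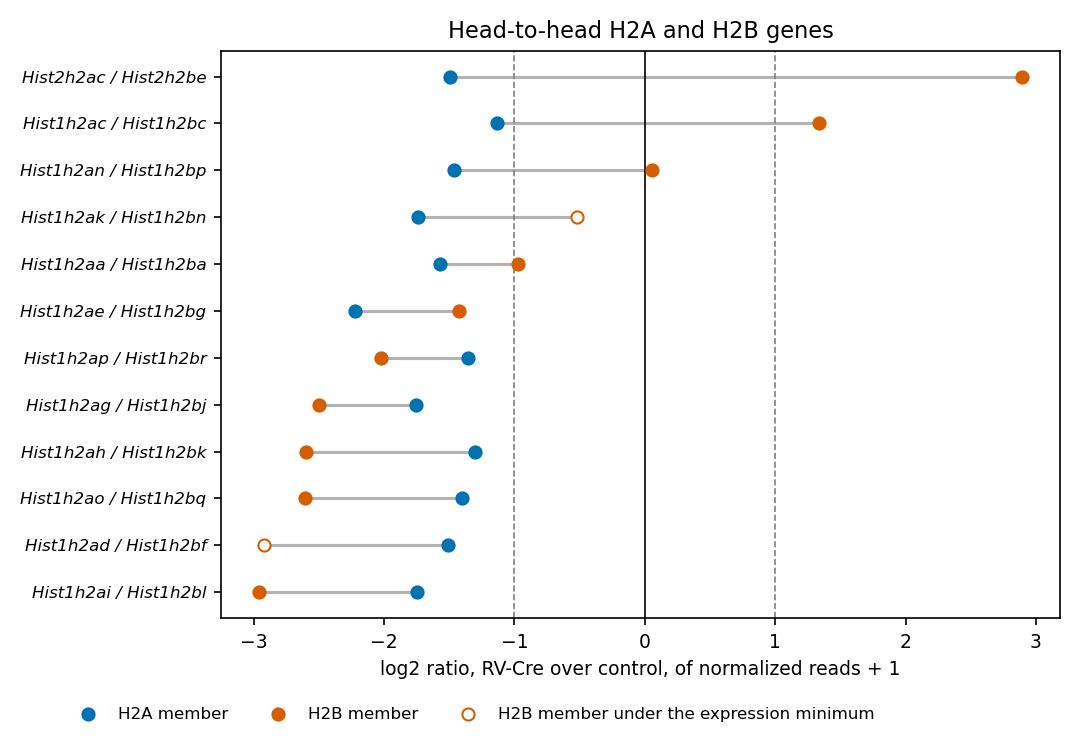
Log2 ratio, RV-Cre over control, of the H2A gene (blue) and the H2B gene (orange) of each head-to-head pair, on the log2(normalized reads + 1) scale, with a grey line joining partners and dashed lines at 2-fold. Open points are H2B genes under the expression minimum, and the pair of *Hist3h2a* with a pseudogene without reads is left out. The partners lie on opposite sides of 0 in the upper 3 rows and on the same side in the others.

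The stretches between the starts are shown for the 2 pairs with a member at least 2-fold higher and for *Hist1h2ag* with *Hist1h2bj*, which fell together. They were read from RefSeq promoters of GRCm38.p6, run from an annotated start to the next, as far as the bases lie outside both genes in GENCODE and in RefSeq, and are given on the strand of the H2B gene. Capitals mark CCAAT, the octamer ATTTGCAT and TATAAA on either strand. None of these matches overlap.
Hist1h2ac to Hist1h2bc, chr13:23683960-23684198: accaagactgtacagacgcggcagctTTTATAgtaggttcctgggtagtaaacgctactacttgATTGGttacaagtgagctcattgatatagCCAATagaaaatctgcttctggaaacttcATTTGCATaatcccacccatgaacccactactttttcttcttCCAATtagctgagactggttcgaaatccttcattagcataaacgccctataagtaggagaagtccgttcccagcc
Hist2h2ac to Hist2h2be, chr3:96220881-96221071: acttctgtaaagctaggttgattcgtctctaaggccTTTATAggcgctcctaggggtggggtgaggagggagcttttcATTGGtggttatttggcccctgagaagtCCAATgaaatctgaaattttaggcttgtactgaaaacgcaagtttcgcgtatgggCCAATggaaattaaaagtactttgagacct
Hist1h2ag to Hist1h2bj, chr13:22042950-22043197: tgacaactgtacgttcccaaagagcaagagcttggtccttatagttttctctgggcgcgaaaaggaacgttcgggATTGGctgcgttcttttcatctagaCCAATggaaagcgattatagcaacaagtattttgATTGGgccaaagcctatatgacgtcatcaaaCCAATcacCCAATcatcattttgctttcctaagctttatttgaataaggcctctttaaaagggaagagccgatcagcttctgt
CCAAT, the motif bound by NF-Y, occurred 3, 3 and 5 times in these stretches. The octamer, bound by OCT1, occurred in the printed stretch of the first. A further match, at chr3:96221073-96221080, lies just past the printed end of the *Hist2h2ac* to *Hist2h2be* stretch and within the GENCODE gap between these genes. Over the 62 RefSeq promoters of 61 members, from 250 bases before to 50 after the start, 53 held CCAAT (85.5%, against 37.4% of all 32851 promoters), 35 TATAAA (56.5% against 13.6%) and 14 the octamer (22.6% against 1.74%). All 14 promoters with the octamer were those of H2A and H2B genes. Promoters of head-to-head partners can overlap, so that the same site can count in both. CCAAT was in 3 of the 12 H4 promoters and in every promoter of the other classes. A match is a run of letters and not a shown binding site.

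The genes around histone supply were followed with lists. Of 23 genes for the transcription and 3′ end processing of histone mRNA, all past the minimum, 2 were at least 2-fold lower (8.70%) and 1 higher (4.35%). Over all genes past the minimum the shares were 12.3% and 14.2%. Most of the 23 had a mean log2 value of 8 or more, where 7.60% of all genes were lower and 3.74% higher, near the shares of the list. The median log2 ratio of the list was -0.15. *Slbp*, which binds the stem-loop, fell from 1418 to 438 reads (log2 ratio -1.52), and *Clp1*, a factor of mRNA 3′ end processing, from 296 to 87 (-1.58). *Npat*, the coactivator of histone genes, had 733 and 435 reads (-0.58), *Casp8ap2* 1940 and 1240 (-0.47), *Lsm11* 388 and 193 (-0.83), *Lsm10* 339 and 350 (0.22) and *Hinfp* 46 and 63 (0.62). *Zfp473*, whose protein works in histone pre-mRNA processing, had 13 and 26 reads (1.11). With a control log2 value of 3.73, it passed the minimum through the RV-Cre library alone.

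Histone chaperones bring new histones to DNA. The list of 27 genes also took in factors of histone import and acetylation, among them *Ipo4*, *Ipo9* and *Hat1*. Of the 27, 5 were at least 2-fold lower (18.5%, against 12.3% of all genes) and 0 higher (median -0.54). *Asf1b*, which hands on H3 and H4, fell from 1000 to 225 reads (log2 ratio -1.97) and *Hat1*, which acetylates new H4, from 1754 to 552 (-1.49). *Cabin1* (800 and 1023 reads, 0.53) and *Ubn1* (2528 and 3056, 0.45), partners of HIRA, which deposits H3.3 outside replication, had the highest values. Of 10 replication-independent histone genes past the minimum, 2 were at least 2-fold lower (20.0%) and 0 higher (median -0.33). These were *Cenpa*, the centromeric H3, from 424 to 78 reads (-2.25), and *H2afz*, from 9502 to 3770 (-1.16). Of the H3.3 genes, *H3f3a* had 1304 and 1165 reads (0.01) and *H3f3b*, with more reads, 9739 and 6964 (-0.31). *H2afj* had the highest value of the list (1887 and 2644 reads, 0.66), before *H2afy* (7032 and 6903, 0.15).

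The 46 DNA replication genes all had log2 ratios below 0, against 50.4% of all genes past the minimum. At least 2-fold lower were 25 (54.3%, against 12.3% of all genes), and the median was -1.18. The lowest were *Rrm2*, a subunit of ribonucleotide reductase, with 2863 and 480 reads (-2.40), and *Fen1*, the flap endonuclease, with 2466 and 424 (-2.36). The values nearest to 0 were those of *Rfc2* (1506 and 1238, -0.11) and *Gins4* (901 and 627, -0.35). Of 13 genes of T cell quiescence and homing 5 were at least 2-fold higher (38.5%, against 14.2% of all genes) and 0 lower (median 0.68), led by *Klf2* with 1175 and 5668 reads (2.44). *Foxp1* (0.22) and *Ccr7* (0.32) had the lowest values of that list.

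**Figure D5:**
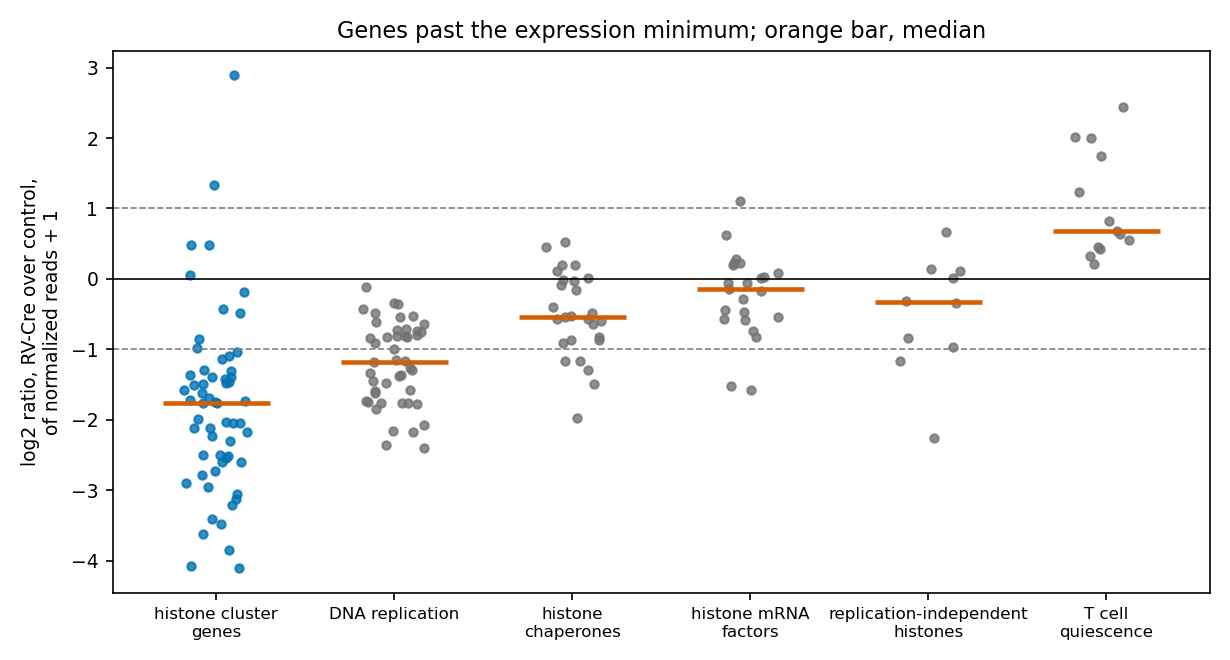
Log2 ratio, RV-Cre over control, on the log2(normalized reads + 1) scale, of the genes past the expression minimum in each list, with the median as an orange bar and dashed lines at 2-fold. The histone cluster genes have a median of -1.76 and a wide spread, DNA replication genes one of -1.18, and the quiescence genes one of 0.68.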

How the data were processed

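The authors prepared QuantSeq libraries from 500 ng of total RNA of each culture and deposited raw counts, the number of reads per gene symbol, without normalization. The submitters' processing notes name bcl2fastq 2.20.0.422, Bowtie2, bedtools and the build mm10. The annotation, and the treatment of reads that match several genes, are not given in the sources used here. Of the 68 members, 34 have at least 50% of their 50-base words in other annotated genes, so the values of single members are uncertain. Sums are not free of this, since several rows may hold the same reads. The shared words can be spread over several genes. In *Hist1h2bf* 65.8% are shared, at most 47.8% with a single gene. Some matches are to a gene that overlaps the member, as *Gm20628* overlaps *Hist2h3b*.

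The libraries held 13799264 (Control) and 12305010 (RV-Cre) reads. Counts were divided by TMM size factors of 1.06 and 0.941 (edgeR 4.0.16, R 4.3.3) and compared as log2(normalized reads + 1) in Python 3.11.15. A gene passed with a log2 value of at least 4, that is 15 normalized reads, in at least 1 library, and was called at a ratio of 2 on that scale. Ratios without the added count carry exact intervals from scipy 1.17.1. No test was run across genes. Reads carry no molecular identifiers, so copies of 1 molecule cannot be told from separate molecules. The intervals, and the limit of 3 reads that stands for a gene without reads, take each read as independent. They hold counting error alone and can be too narrow. The procedure was checked on simulated counts.

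Named were *Ptk2*, called members, the 15 members of most reads, the leading member of each class, the *Hist3* and *Hist4* genes, the 2 extremes of each list in each direction and 6 histone factors. A gene that this rule names is not reported here. Members named for intervals that include 1, for shared counts, as partners of a pair or for a small change were chosen after their values were seen. The members and lists were chosen with earlier results of these data known. Alternatives were other scalings, minimums, fold thresholds and pseudocounts.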

Additional observations from a re-analysis of the deposited data

How the results depend on the processing

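No paired analysis was possible because both conditions lack replicates. The main counts were 49 members lower and 2 higher. Raising the log2 minimum from 4 to 6 left 28 lower of 32 tested (87.5%, against 11% of all genes) and asking for 4 in both libraries 27 of 34 (79.4%, against 10.4%). The latter minimum left 1 higher, as did a fold threshold of 3. Chosen after the data were seen, the 34 members with under 50% of their 50-base words shared gave 21 lower of 27 tested (77.8%). Chosen likewise, the 44 members that overlap no annotated gene gave 28 lower of 35 (80.0%). The share over all genes at the main minimum was 12.3%.

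The log2 ratio of the sum of all members was -1.36. It was -1.27 with library totals without *Rn45s* (8.50% and 14.6% of reads), and -1.41 with each pair of rows of identical counts taken once. It was -1.59 over members with under 50% of words shared and -1.86 over members that overlap no annotated gene. For H2A (-1.31) the same settings gave -1.22, -1.36 and -1.64, with no member for the last. H2A was at -1.26 without *Hist1h2ap* and -1.16 without members with a run of 10 or more A. With under 50% of words shared, H2B (-1.16) was at -0.31, where *Hist1h2bc* and *Hist2h2be* weigh more, and H4 (-2.24) at -1.69. H4 was at -1.86 without overlapping members and also without *Hist1h4b*, the member of most reads, and H2B at -0.98 without *Hist1h2bj*.

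Scaling to *Gapdh*, which itself had 956 and 634 reads, raised log2 ratios by about 0.42. The sums were then -0.94 for all members, -1.34 for H1, -0.89 for H2A, -0.74 for H2B, -2.18 for H3 and -1.82 for H4, and the DNA replication median was -0.76. The medians of the histone mRNA factors (0.27) and the replication-independent histones (0.11) changed sign, which the common shift gives. Of 385 values of 55 members followed, 362 stayed within their counting interval, 23 moved and 0 changed sign.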

Other observations

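Histone genes known from the testis were followed as a group chosen after their values were seen. *Hist1h1t* had no read in either library, which allows up to 0.217 (control) and 0.244 (RV-Cre) CPM, that is 3 reads scaled to the library total. *Hist1h2aa* had 29 and 8 reads and *Hist1h2ba*, its head-to-head partner, 21 and 9. The germ cell genes *Prm2* and *Tnp1* had no reads, *Prm1* had 1 and 0, *Ddx4* 4 and 0 and *Dazl* 10 and 8. Of the 50-base words of *Hist1h2aa* 23.8% occur in other annotated genes, of those of *Hist1h2ba* 38.2% and of those of *Hist1h1t* 0%, and the part of shared sequence in the reads was not tested.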
